A study of Arabidopsis thaliana with 9 samples.

Results

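The mitochondrial genome of Arabidopsis was represented in the transcript index of these libraries by 146 loci of 33603 in all, taken as every entry whose identifier starts with ATMG. The 146 loci were grouped by product. There were 14 loci of complex I, 1 of complex III, 3 of complex IV, 6 of ATP synthase, 5 of cytochrome c maturation, 7 of ribosomal proteins, 2 that encode a maturase and a transport protein, and 3 rRNA loci. A further 20 loci were shorter than 100 nt, the length of a tRNA, and the remaining 85 were open reading frames with no product assigned here. Estimated counts and TPM (a level scaled for transcript length and library total) of all models of a locus were summed.

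Plant mitochondria keep a small genome that encodes some subunits of the respiratory chain and of ATP synthase, part of the mitochondrial ribosome, and proteins that attach heme to cytochrome c. The nucleus encodes the other subunits, and also the polymerases and the intron maturases and other factors that transcribe and splice mitochondrial RNA. Several mitochondrial genes, including nad1, nad2 and nad5, are split into pieces that are transcribed apart and joined by trans-splicing.

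RNA came from dissected early heart embryos, 20 embryos per library, and was copied from oligo-dT priming by Smart-seq2, so that RNA without a poly(A) tail is captured only in part. The 3 genotypes were compared with 3 biological replicates each. Col-0 carries an inactive FRI, 35S::FCA is transgenic Col-0 that overexpresses FCA from the viral 35S promoter, and Col FRI is Col-0 with active FRI. The parents of Col FRI embryos alone were vernalized for 6 weeks in the cold, so FRI and this treatment cannot be told apart. All 6 embryo marker genes were over 3 counts in every library, with a summed level of 209 to 305 TPM, while the sums of 6 endosperm and 6 seed coat markers were 7.78 to 13.2 and 10.5 to 17.4 TPM. In each library 4 to 6 of the endosperm and 4 to 5 of the seed coat markers were also over 3 counts. FLC, the floral repressor that FRI activates, was at 131 to 137 TPM in Col FRI and 28.2 to 35.4 TPM in the other libraries.

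The library Col-0 replicate 3 stood apart. Mitochondrial loci took 12.8% of its counts, against 5.21 and 6.15% in Col-0 replicates 1 and 2. Chloroplast loci took 10.9% against 5.22 and 6.29%, and nuclear rRNA loci took 13.5% against 7.01 and 7.64%. The counts of loci called, and the fold changes of the loci described below, are therefore given with and without this library. Depth was 15166826 to 25847613 estimated counts per library, of which 1285444 to 2617514 were mitochondrial.

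A nuclear copy of mitochondrial sequence bears on every level below. Chromosome 2 of Arabidopsis carries a long insertion of the mitochondrial genome, and 128 nuclear loci of the index, 126 of them on chromosome 2, had at least 90% of their 31-nt words in the mitochondrial genome. In 14 of 32 mitochondrial coding genes every such word of the coding sequence was also present in a nuclear locus, while 7 genes (nad4L, nad9, cox1, atp4, ccmB, rps3 and rpl16) had under 5% of them there. Reads of shared sequence were divided between the entries by estimation. The 4 copies printed here show where the reads of whole genes were assigned. The entries of cob, the cytochrome b of complex III, of the ribosomal protein genes rpl5 and rps7, and to nearly the same extent of the complex I gene nad3, were empty while the copies held the counts. The start of each copy's coding sequence in TAIR10.1 is printed below with the start codon in capitals, and each of the 30 words of 31 nt in each stretch was found in the mitochondrial genome.
AT2G07727, copy of cob, chr2:3450863-3450922, plus strand: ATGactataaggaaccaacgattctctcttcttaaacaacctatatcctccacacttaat
AT2G07725, copy of rpl5, chr2:3448402-3448461, plus strand: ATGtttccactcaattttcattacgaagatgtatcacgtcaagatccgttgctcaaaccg
AT2G07696, copy of rps7, chr2:3351727-3351786, minus strand: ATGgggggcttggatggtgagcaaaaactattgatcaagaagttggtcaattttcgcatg
AT2G07751, copy of nad3, chr2:3270008-3270067, plus strand: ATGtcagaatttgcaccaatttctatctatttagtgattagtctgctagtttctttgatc

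The mitochondrial entries of cob, rpl5 and rps7 were listed at 0 in all 9 libraries, and their copies held 7615 to 16462, 3034 to 6533 and 2253 to 4293 estimated counts. The entry of nad3 held 0 to 79.8 counts and its copy 3372 to 6297. These zeros thus state how counts were assigned, and no level of cob, rpl5, rps7 or nad3 can be read from the mitochondrial entry alone. In all, 53 pairs of 51 mitochondrial loci and a nuclear copy were found, and in 8 pairs the counts of both members were equal within 0.1% in every library. Among these were atp8 and rps12, whose entry and copy each held 902 to 1722 and 248 to 502 counts. All nuclear loci of mitochondrial sequence together held 53.8 to 57.0 counts per 100 non-rRNA mitochondrial counts, a narrow range over the 9 libraries.

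**Figure D1:**
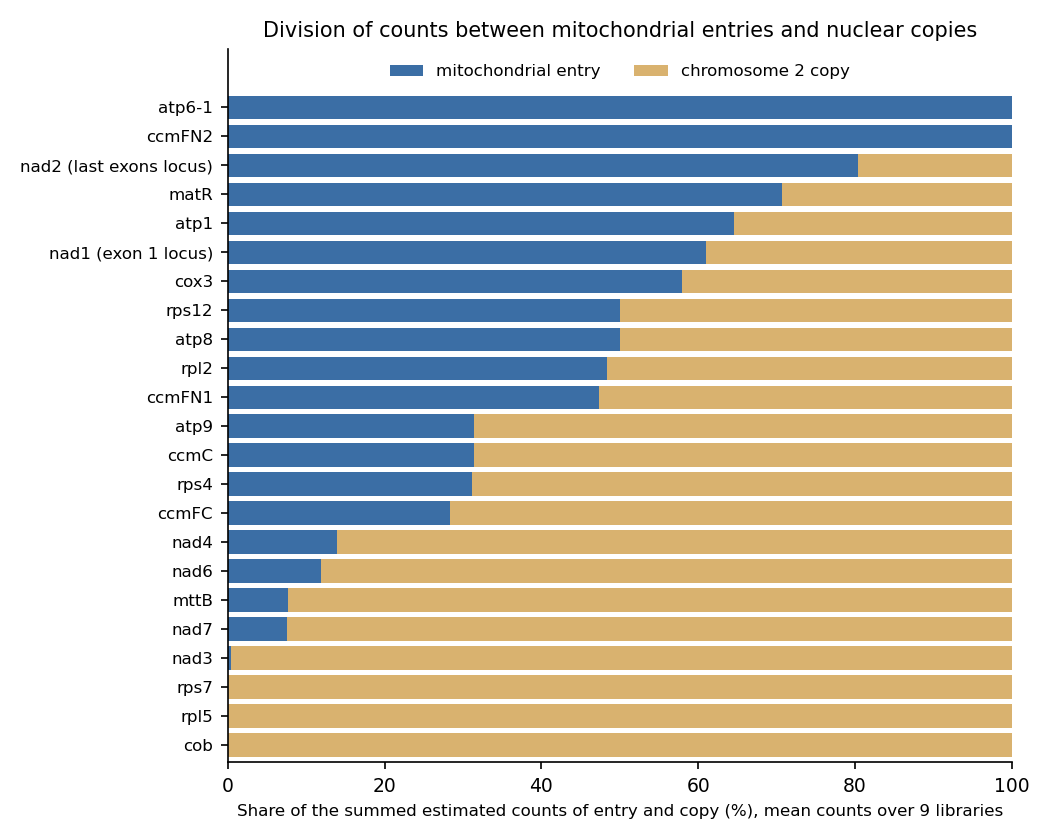
Share of the summed estimated counts (%) that the mitochondrial entry (blue) and its paired chromosome 2 copy (tan) held for 23 named loci, from mean counts over the 9 libraries. The entries of cob, rpl5 and rps7 held 0%, and those of atp8 and rps12 held equal shares with their copies.

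Of the 146 loci, 104 were over 3 counts in every library, 9 in some libraries, and 33 were at or under 3 counts throughout. Among these 33 were 22 open reading frames, and 10 of them had a nuclear copy.

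Ribosomal RNA made up most mitochondrial counts. The 3 rRNA loci held 83.5 to 85.3% of them in every library. rrn26, the large subunit rRNA, was at 11826, 14189 and 29211 TPM in Col-0, 17337, 20279 and 19268 TPM in 35S::FCA, and 23912, 22394 and 22967 TPM in Col FRI. It alone held 79.3 to 82.5% of mitochondrial counts. The small subunit rRNA, rrn18, was at 719, 1055 and 1650.2 TPM in Col-0, 1162, 914 and 1000.04 TPM in 35S::FCA, and 1408, 1527 and 1505 TPM in Col FRI. The TPM of rrn26 was thus 13.4 to 22.2 times that of rrn18, although the ribosome holds them in equal number. rrn5 was at 135, 172 and 276 TPM in Col-0, 211, 216 and 215 TPM in 35S::FCA, and 292, 309 and 309 TPM in Col FRI, which lay above all other libraries.

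The open reading frames were dominated by ATMG00030, a 324-nt entry with the second highest level after rrn26. It was at 10805, 12111 and 27188 TPM in Col-0, 15855, 19176 and 17781 TPM in 35S::FCA, and 22909, 21456 and 21979 TPM in Col FRI. It followed rrn26 closely, with 7.20 to 7.95 counts per 100 counts of rrn26 in every library. ATMG01200 came next, at 212, 270 and 482 TPM in Col-0, 330, 339 and 346 TPM in 35S::FCA, and 418, 394 and 395 TPM in Col FRI. In both loci, as in rrn26 and rrn5, Col-0 replicates 1 and 2 were the lowest libraries. The median open reading frame was at 5.67 TPM.

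Of the ATP synthase genes, atp1 (the alpha subunit) had the highest level of all protein-coding loci with an assigned product. It was at 770, 999 and 1686 TPM in Col-0, 1191, 1191 and 1206 TPM in 35S::FCA, and 1474, 1458 and 1477 TPM in Col FRI. Replicates of 35S::FCA and of Col FRI were near equal, and these groups did not overlap with each other, while Col-0 spanned both. The other ATP synthase entries followed at mean levels of 262 TPM (atp4), 155 TPM (atp9, the ring subunit), 116 TPM (atp8), 63.1 TPM (atp6-1) and 45.7 TPM (atp6-2). The atp6 loci share sequence, so that the division between them is uncertain, and the levels of atp8, atp9 and atp1 leave out what their copies held.

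Complex I, the NADH dehydrogenase, had mean levels from 0 to 677 TPM over its loci. The middle exons locus of nad1 was at 423, 502 and 1002 TPM in Col-0, 585, 533 and 580 TPM in 35S::FCA, and 858, 794 and 814 TPM in Col FRI. The last exons locus of nad1 was at 318, 381 and 713 TPM in Col-0, 437, 410 and 402 TPM in 35S::FCA, and 645, 600 and 599 TPM in Col FRI. The exon 1 locus of the same gene was lower, at 78.3 to 188 TPM, with a copy that held 398 to 885 further counts beside its own 676 to 1477. The 3 pieces of this split gene were therefore not listed at 1 level, in any library.

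The first exons locus of nad5 was at 345, 378 and 692 TPM in Col-0, 437, 422 and 432 TPM in 35S::FCA, and 609, 580 and 588 TPM in Col FRI. nad4L was at 327, 427 and 705 TPM in Col-0, 423, 347 and 385 TPM in 35S::FCA, and 611, 540 and 547 TPM in Col FRI. In both, Col-0 replicate 3 was highest and all Col FRI libraries lay above all of 35S::FCA. Col-0 replicates 1 and 2 lay below 35S::FCA for nad5, and overlapped with it for nad4L. Mean levels of the other complex I entries ran from 191 TPM (nad9) and 181 TPM (last exons of nad5) over 87.1 TPM (nad4), 70.2 TPM (last exons of nad2) and 21.9 TPM (nad7) to 10.2 TPM (first exons of nad2) and 5.69 TPM (nad6). The entries of nad4, nad7 and nad6 had copies with 16657 to 30518, 5949 to 12470 and 462 to 915 counts. The middle exon of nad5, an entry of 22 nt, was at 0.

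Complex IV, the cytochrome c oxidase, was led by its catalytic subunit cox1, at 297, 344 and 640 TPM in Col-0, 426, 303 and 352 TPM in 35S::FCA, and 601, 583 and 577 TPM in Col FRI. cox2 and cox3 had means of 55.6 and 41.1 TPM. In cytochrome c maturation, ccmFN1 led with 233 TPM, followed by ccmFN2 (137 TPM), ccmB (111 TPM), ccmFC (33.4 TPM) and ccmC (15.5 TPM). The ribosomal protein entries ran from 175 TPM (rps3) and 127 TPM (rpl16) to 68.0 TPM (rpl2), 49.0 TPM (rps4) and 45.3 TPM (rps12). The intron maturase gene matR was at 27.4 TPM and mttB, a membrane transport gene of the TatC family, at 12.9 TPM.

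**Figure D2:**
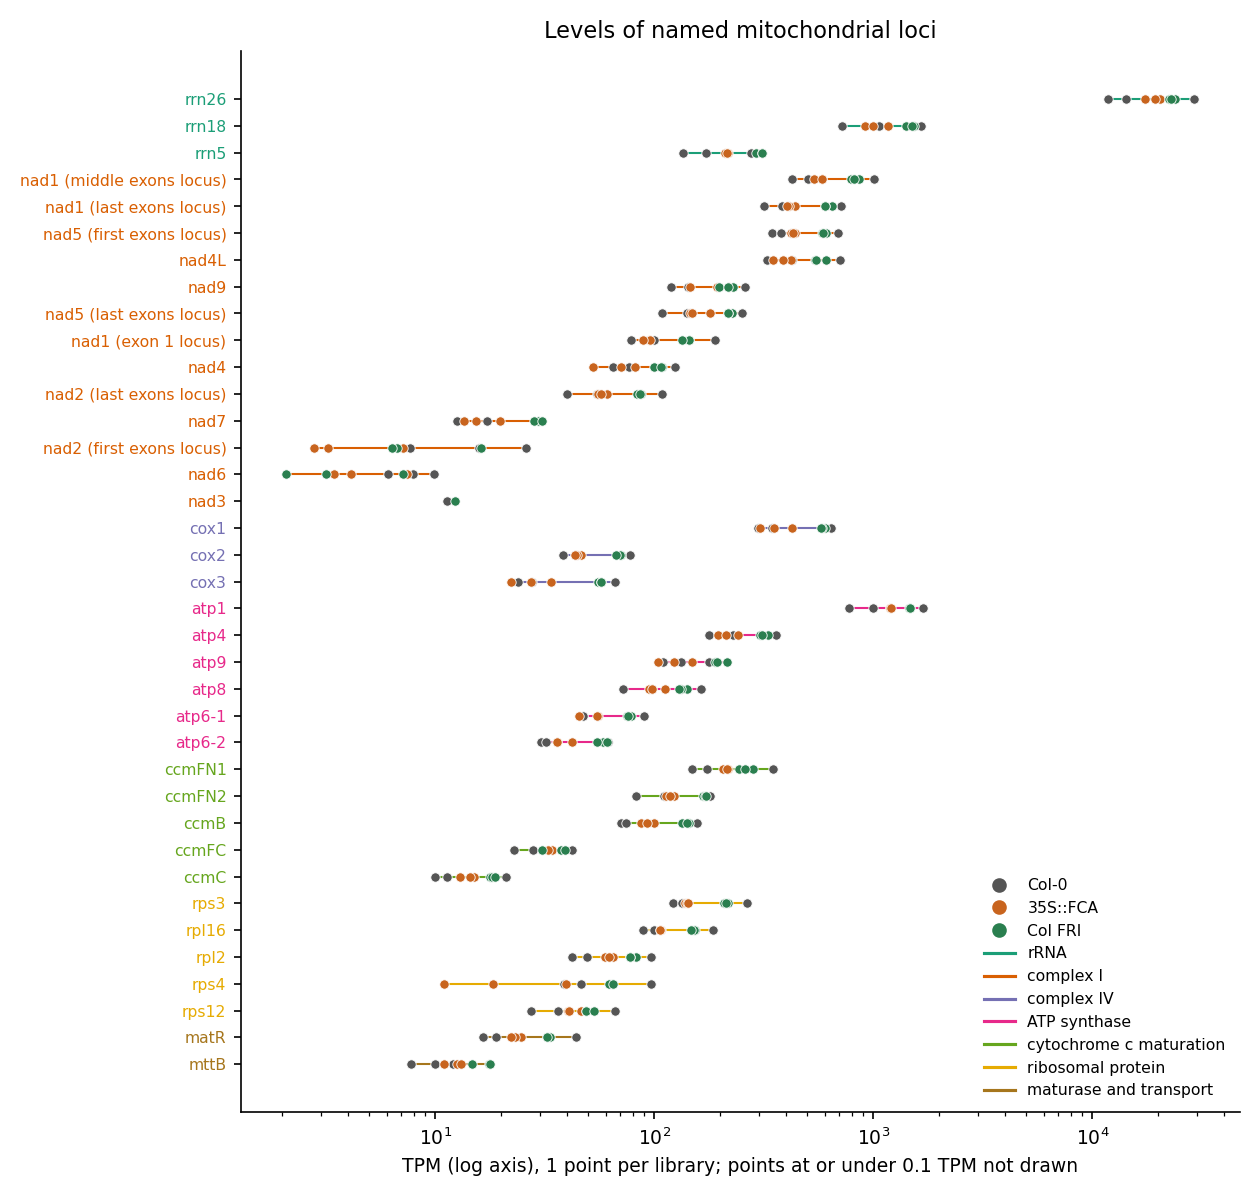
Level of named mitochondrial loci in TPM (log axis), 1 point per library, colored by genotype and with labels colored by class. rrn26 spans 11826 to 29211 TPM and nad6 2.09 to 9.86 TPM. The entries of cob, rpl5, rps7 and the middle exon of nad5 are at 0 and not drawn, and nad3 has points only where its entry was above 0.1 TPM.

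The next question was how large the mitochondrial share was in each genotype. Mitochondrial loci took 8.01, 8.16 and 8.06% of counts in 35S::FCA and 10.9, 9.94 and 10.2% in Col FRI. The means were 8.07% ± 0.0767 (SD, n = 3) and 10.3% ± 0.494 (SD, n = 3), and the groups did not overlap. Col-0 had 8.07% ± 4.16 (SD, n = 3), with replicates below and above all other libraries. On the log2 scale Col FRI was 0.36 above 35S::FCA and 0.36 above Col-0, while 35S::FCA and Col-0 differed by 0.00058. Without Col-0 replicate 3 the differences to Col-0 became 0.86 for Col FRI and 0.51 for 35S::FCA. The shares are given with no test. In such bulk libraries, fewer cells or mitochondria and less RNA in each cannot be told apart.

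The same order was seen without the rRNA loci. Non-rRNA mitochondrial loci took 1.30, 1.20 and 1.23% of counts in 35S::FCA and 1.75, 1.63 and 1.66% in Col FRI, and 0.861, 1.00 and 2.01% in Col-0. There were 0.806 to 1.09 chloroplast counts per mitochondrial count. Col-0 had the same order of libraries in both shares. With rRNA loci included, the library with the highest mitochondrial share had the lowest chloroplast share within 35S::FCA and within Col FRI. Without the rRNA loci this held in Col FRI only, and 35S::FCA replicate 1 was the highest of its genotype in both shares. Chloroplast shares were 8.75, 6.58 and 7.25% in 35S::FCA and 9.29, 9.55 and 9.49% in Col FRI. Nuclear rRNA took 8.64, 7.08 and 7.36% in 35S::FCA and 8.18, 9.35 and 9.14% in Col FRI. The part of RNA quality or of cDNA capture in these shares was not tested. The summed level of endosperm markers was 11.3 to 13.2 TPM in Col-0 and 7.78 to 9.27 TPM in the other genotypes, and its part was not tested. In that list MEA was at 0 in Col-0 replicates 1 and 2, and in the seed coat list TT16 was at 0 in Col FRI replicates 1 and 2.

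**Figure D3:**
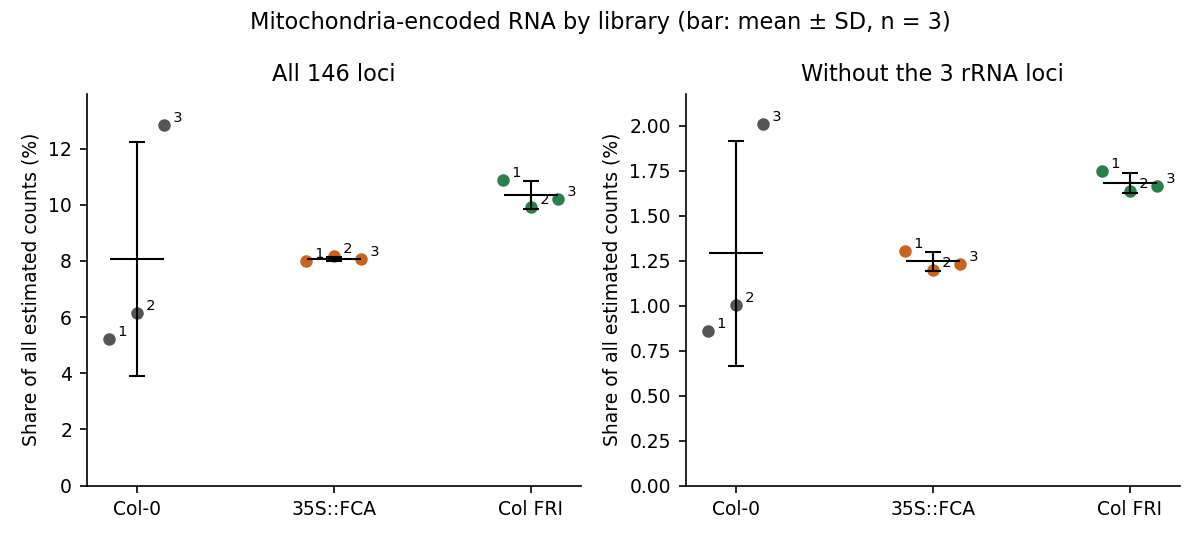
Share of all estimated counts (%) on the 146 mitochondrial loci (left) and on these without the 3 rRNA loci (right), 1 numbered point per library, with mean ± SD (n = 3). The 3 Col FRI libraries (9.94 to 10.9%) lie above the 3 of 35S::FCA (8.01 to 8.16%), and Col-0 runs from 5.21 to 12.8%.

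Single loci were then tested with edgeR over all 9 libraries and 18585 loci, of which 108 were mitochondrial. By the rule of an adjusted p below 0.001 with a change of more than 2-fold, 0 mitochondrial loci were called in each comparison, while 0.183% (Col FRI against Col-0), 0.00538% (35S::FCA against Col-0) and 0.56% (Col FRI against 35S::FCA) of all loci were. DESeq2 also called 0 by this rule. Past an adjusted p of 0.05, 1 locus, mttB, was higher in Col FRI than in Col-0, where 13.3% of all loci passed. Against 1.52% and 12.9% of all loci, 0 mitochondrial loci passed in 35S::FCA against Col-0 and in Col FRI against 35S::FCA. DESeq2 gave 2, 0 and 0 in the same order of comparisons, beside 12.9%, 3.45% and 13.2% of all loci. At an unadjusted p under 0.05 there were 3, 2 and 14 mitochondrial loci, where 30%, 18.8% and 29.7% of all loci passed. The median log2 fold change of the 108 loci was 0.31, -0.16 and 0.46, beside -0.01 over all loci in each comparison. The negative sign in 35S::FCA against Col-0 depended on the measure. With limma on log2(TPM + 0.1) the median there was 0.07, beside 0.07 over all loci. With limma on log2(TPM + 1) it was 0.04, beside 0.06.

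Leaving out Col-0 replicate 3 changed these counts. This library was set apart by its high mitochondrial share, the same quantity that is tested here. Its removal thus raises most fold changes against Col-0 by construction, and the loci move together. Counts against Col-0 without it, here and below, are therefore no independent evidence of a difference. Without it, 70 of 108 mitochondrial loci were higher in Col FRI than in Col-0 past an adjusted p of 0.05, with 0 lower, where 9.8% of all loci were higher. The median log2 fold change rose to 0.88, and ATMG00030 alone passed the stricter rule (log2 fold change 1.06, standard error 0.11, edgeR adjusted p = 0.00087), which 0.289% of all loci passed. In 35S::FCA against Col-0, 14 were higher and 0 lower (background 3.21% higher), 0 by the stricter rule (background 0.0105%), and the median turned from -0.16 to 0.42. Leaving out another Col-0 library moved the medians the other way. Without Col-0 replicate 1 they were 0.04 (Col FRI against Col-0) and -0.45 (35S::FCA against Col-0). Without Col-0 replicate 2 they were 0.14 and -0.32, so the sign for 35S::FCA depended on the library left out. Col FRI against 35S::FCA holds no Col-0 library, yet it shares the estimate of the spread. The removal left the fold changes of cox1 and rps3 there near unchanged. Their standard errors fell from 0.34 to 0.19 and from 0.31 to 0.10. Calls from this fit in Col FRI against 35S::FCA, here and below, thus also depend on leaving the library out. With Col-0 replicate 3 left out, 38 loci were higher and 1 lower (ATMG01230) there (background 10% higher), 0 by the stricter rule (background 0.71%), and with only the 6 libraries of these genotypes 48 were higher and 1 lower (background 13.2% higher). Col-0 then had 2 libraries, and the comparisons with it share these.

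In Col FRI against 35S::FCA, the TPM of 64 of the 108 loci lay above 35S::FCA in all 3 Col FRI libraries, and 4 open reading frames lay below. Among all loci tested, 11.8% lay above and 24.3% below. Against Col-0 with all libraries, 5 loci lay above in Col FRI (mttB, atp9, rrn5, ATMG00050 and ATMG01350) and 0 below, where 12.4% of all loci lay above and 14.2% below. In 35S::FCA 1 lay above Col-0 (ATMG01350) and 1 below (first exons of nad2), where 6.96% of all loci lay above and 3.29% below.

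**Figure D4:**
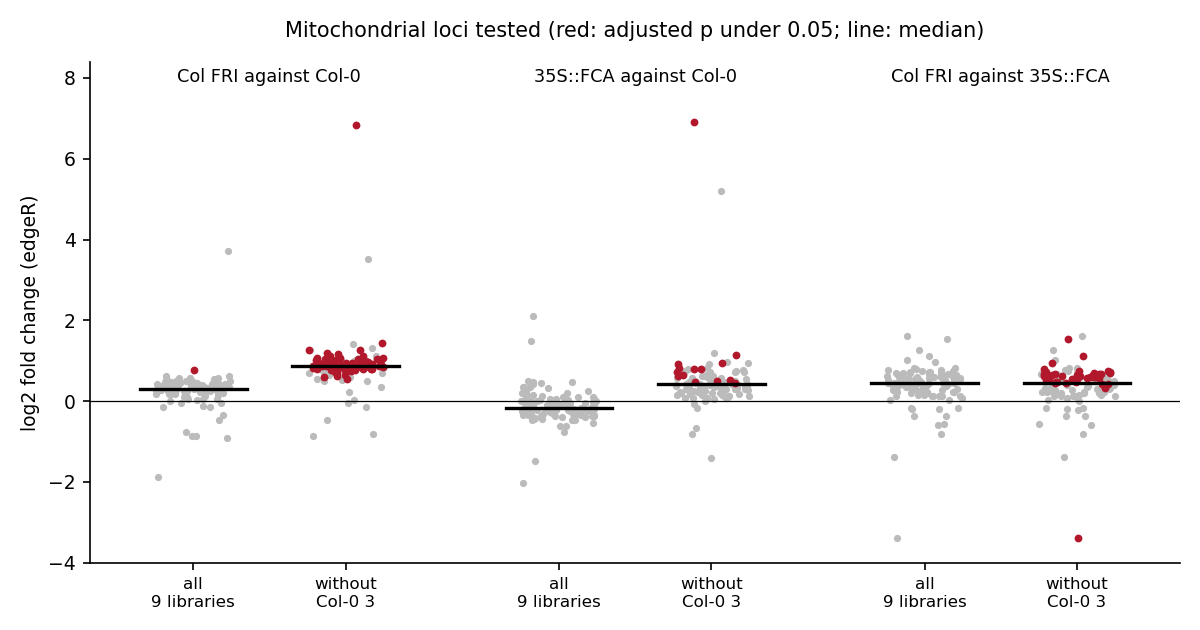
log2 fold change of the mitochondrial loci tested in 3 comparisons (edgeR), 1 point per locus, over all 9 libraries and without Col-0 replicate 3, with loci at an adjusted p under 0.05 in red and the median as a line. In Col FRI against Col-0 the median goes from 0.31 to 0.88, and in 35S::FCA against Col-0 from -0.16 to 0.42.

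Without Col-0 replicate 3, 10% of all loci were higher in Col FRI than in 35S::FCA past an adjusted p of 0.05. As mitochondrial loci move together, their classes are not separate pieces of evidence. The mitochondrial loci higher in that fit were counted by class. Those past an adjusted p of 0.05 were 10 of 12 tested in complex I, 3 of 3 in complex IV, 4 of 6 in ATP synthase, 4 of 5 in cytochrome c maturation, 4 of 5 ribosomal protein loci, both of the maturase and transport class, 1 of 3 rRNA loci, 10 of 61 open reading frames and 0 of 11 of tRNA length. In the fit over all 9 libraries 0 of these passed, and the class medians of the log2 fold change ran from 0.14 (tRNA length) to 0.80 (complex IV). In Col FRI against Col-0 without that replicate, all tested loci of rRNA, complex IV, ATP synthase, cytochrome c maturation and the maturase and transport class were higher, with 9 of 12 in complex I and 35 of 61 open reading frames. Over all loci, 9.8% were higher there. In 35S::FCA against Col-0 without that replicate, where 3.21% of all loci were higher, 11 of the 14 higher loci were open reading frames. The others were nad9, rpl2 and ATMG00190, a locus of tRNA length.

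For the 7 genes with under 5% of words in a nuclear locus, few reads could be divided in this way. In Col FRI against 35S::FCA their log2 fold changes were 0.34 to 0.80 over all 9 libraries, with edgeR adjusted p from 0.146 to 0.47. In 6 of the 7, all but nad9, all Col FRI libraries lay above all of 35S::FCA in TPM, as did 11.8% of all loci tested. Without Col-0 replicate 3, where 10% of all loci were higher, all 7 passed, from nad9 (0.34, standard error 0.09, edgeR adjusted p = 0.0353) to cox1 (0.79, standard error 0.19, edgeR adjusted p = 0.0197). Against Col-0, the log2 fold changes of the 7 genes in Col FRI were 0.19 to 0.45 with all libraries. Without Col-0 replicate 3 they were 0.69 to 1.07 and all 7 passed, beside 9.8% of all loci higher. In 35S::FCA against Col-0 they were -0.46 to -0.06 with all libraries. Without that replicate they were 0.05 to 0.51 and nad9 alone passed, beside 3.21% of all loci higher.

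The loci with the smallest p within each comparison were mostly ones with a nuclear copy or with few counts. mttB was at 7.71, 10.01 and 12.1 TPM in Col-0, 12.6, 10.9 and 13.1 TPM in 35S::FCA, and 17.6, 17.7 and 14.7 TPM in Col FRI. All Col FRI libraries lay above Col-0, and the locus passed the test (log2 fold change 0.77, standard error 0.23, edgeR adjusted p = 0.0493). The value was 1.04 without Col-0 replicate 3 (edgeR adjusted p = 0.0064), but leaving out any other single library of Col-0 or Col FRI ended the call (0.56 to 0.85, edgeR adjusted p from 0.0982 to 0.152). Its copy AT2G07716 held 2577 to 4881 counts beside its own 202 to 363, and with the copy added the log2 fold change was 0.18 (edgeR adjusted p = 0.706), or 0.69 (edgeR adjusted p = 0.00399) also without Col-0 replicate 3.

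rps4, a small subunit protein, was at 38.7, 46.2 and 96.8 TPM in Col-0, 39.3, 10.9 and 18.3 TPM in 35S::FCA, and 64.3, 62.3 and 64.6 TPM in Col FRI. Replicates 2 and 3 of 35S::FCA were the lowest of all libraries. The log2 fold change in 35S::FCA relative to Col-0 was -1.47 with a standard error of 0.53 (edgeR adjusted p = 0.176) and 1.53 in Col FRI against 35S::FCA (standard error 0.54, edgeR adjusted p = 0.0875). When Col-0 replicate 3 was left out, the values were -0.81 (edgeR adjusted p = 0.311) and 1.53 (edgeR adjusted p = 0.0372). Leaving out 35S::FCA replicate 1 gave -2.29 (edgeR adjusted p = 0.0395) and 2.35 (edgeR adjusted p = 0.0135), so that single libraries decided both calls. With the copy AT2G07734 added to the entry in all libraries, it was -0.45 and 0.73. Entry and copy together had 187, 155 and 166 CPM in 35S::FCA, 276, 266 and 258 in Col FRI and 137, 163 and 341 in Col-0. The sum still lay lower in 35S::FCA than in Col FRI in every library.

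The first exons locus of nad2 was at 7.70, 15.8 and 25.8 TPM in Col-0, 3.23, 2.80 and 7.15 TPM in 35S::FCA, and 16.2, 6.70 and 6.36 TPM in Col FRI. All 35S::FCA libraries lay below Col-0 (log2 fold change -2.03, standard error 0.56, edgeR adjusted p = 0.097), on 39.8 to 349 counts, and the value was -1.40 when Col-0 replicate 3 was left out (edgeR adjusted p = 0.122). The last exons locus of the same gene had mean levels of 67.7 TPM in Col-0, 57.6 TPM in 35S::FCA and 85.3 TPM in Col FRI. nad6 was at 6.09, 9.86 and 7.94 TPM in Col-0, 4.10, 3.43 and 7.44 TPM in 35S::FCA, and 3.18, 2.09 and 7.11 TPM in Col FRI. Its log2 fold change in Col FRI against Col-0 was -0.92 (edgeR adjusted p = 0.183), or -0.82 when Col-0 replicate 3 was left out (edgeR adjusted p = 0.254), and became 0.35 with the copy AT2G07731 added.

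atp9 was at 110, 132 and 178 TPM in Col-0, 148, 104 and 123 TPM in 35S::FCA, and 190, 215 and 192 TPM in Col FRI, which lay above all other libraries. Its log2 fold change in Col FRI against 35S::FCA was 0.76 (standard error 0.27, edgeR adjusted p = 0.087), and 0.73 with its copy added. It passed at 0.75 without Col-0 replicate 3 (edgeR adjusted p = 0.0287) and at 1.04 without 35S::FCA replicate 1 (edgeR adjusted p = 0.0277). nad7 was at 12.5, 17.2 and 29.8 TPM in Col-0, 19.8, 13.5 and 15.4 TPM in 35S::FCA, and 29.4, 28.3 and 30.7 TPM in Col FRI. Its log2 fold change against 35S::FCA was 0.96 (edgeR adjusted p = 0.101), and 0.48 with the copy AT2G07709 added. It passed at 0.95 without Col-0 replicate 3 (edgeR adjusted p = 0.0153), and there also with the copy added, at 0.47 (edgeR adjusted p = 0.0208).

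Among open reading frames, ATMG01350 was at 21.5, 26.8 and 43.2 TPM in Col-0, 44.4, 45.9 and 47.8 TPM in 35S::FCA, and 44.1, 48.7 and 47.1 TPM in Col FRI. ATMG01210 was at 26.01, 30.4 and 48.9 TPM in Col-0, 41.9, 64.6 and 54.3 TPM in 35S::FCA, and 43.0, 33.4 and 37.0 TPM in Col FRI. ATMG01210 was thus highest in 35S::FCA replicates 2 and 3, in which most mitochondrial loci were lower than in Col FRI. Over all libraries the log2 fold changes of ATMG01350 and ATMG01210 in 35S::FCA against Col-0 were 0.48 and 0.48 (edgeR adjusted p = 0.367 and 0.345). Without Col-0 replicate 3 both were higher in 35S::FCA than in Col-0 (log2 fold changes 0.94 and 0.92, edgeR adjusted p = 0.00799 and 0.0075).

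The other open reading frames with the smallest p held few counts. ATMG00530 had 19.9, 12.4 and 22.7 counts in Col-0, 20.5, 26.03 and 35.9 in 35S::FCA, and 3.26, 3.59 and 14.6 in Col FRI. Its log2 fold change in Col FRI against 35S::FCA was -1.38 both with all libraries (edgeR adjusted p = 0.141) and without Col-0 replicate 3 (edgeR adjusted p = 0.1003), passed at -2.44 without Col FRI replicate 3 (edgeR adjusted p = 0.0483), and turned to 0.38 with the copy AT2G07776 added. ATMG00050 had 6.81, 10.5 and 14.1 counts in Col FRI, 9.16, 0 and 5.21 in 35S::FCA, and at most 2.51 in Col-0. ATMG01230 had 5.61, 15.1 and 29.8 counts in 35S::FCA, at most 2.23 in Col FRI, and 14.8 in Col-0 replicate 3 alone of its genotype. With so few counts no fold is given for the last 2.

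Shares within mitochondrial RNA varied less than levels did. Over 62 non-rRNA loci with a mean above 100 counts, the share of a locus in non-rRNA mitochondrial counts had a median coefficient of variation of 9.7% over the 9 libraries, against 27.0% for its CPM (counts scaled to library total). It was under 10% in 32 loci, with rpl2 (2.11%) the steadiest and atp1 at 4.51%, and over 30% in 3 loci, the first exons of nad2 (65.5%), rps4 (40.7%) and ATMG01210 (31.6%). When mitochondrial counts were taken as library size, which centers these loci near 0 by construction, ATMG00050 passed as higher and nad6 as lower for Col FRI relative to Col-0, by an adjusted p of 0.05. The first exons of nad2 were lower in 35S::FCA than in Col-0 and ATMG01230 was lower in Col FRI than in 35S::FCA.

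Open reading frames held 43.4 to 51.3% of non-rRNA mitochondrial counts, ATP synthase 20.6 to 23.7%, complex I 12.4 to 15.1%, complex IV 5.66 to 8.59%, ribosomal proteins 3.86 to 5.15% and cytochrome c maturation 4.09 to 4.39%. Most of the open reading frame share was ATMG00030, which alone held 35.0 to 43.2% of these counts. As it is part of the total, a change in it shifts the share of every other class. In these shares, whose total includes ATMG00030, the ribosomal protein class differed by genotype. It held 5.15, 4.89 and 4.98% in Col-0, 4.19, 3.86 and 3.96% in 35S::FCA, and 4.72, 4.69 and 4.67% in Col FRI. The groups did not overlap, and here Col-0 replicate 3 lay between the other Col-0 libraries. The order was the same without rps4 (4.27 to 4.53%, 3.74 to 3.76% and 4.13 to 4.19%) and with the nuclear copies added (6.45 to 6.64%, 5.61 to 5.79% and 6.12 to 6.18%). The split of Col-0 from Col FRI depended on the total taken. Non-rRNA loci with an assigned product held 56.4% of these counts in Col-0 replicate 2 and 53.5 to 53.6% in Col FRI. With the entries of these loci as the total, Col-0 replicate 2 fell below Col FRI, though not with copies added. The class stayed lowest in 35S::FCA. In this class rps3 held the most counts (mean 7887), while the share of rpl2 (mean 1837 counts) stayed at 0.627 to 0.674% over the 9 libraries. The order of the class sum is thus not that of every member. Complex IV held 8.06, 5.66 and 6.54% in 35S::FCA, so that replicate 1 resembled the 7.80 to 8.20% of Col-0 and the others did not, and 8.39 to 8.59% in Col FRI. Complex III appeared only with copies added, at 1.85 to 2.43% in 35S::FCA, with 2.57 to 2.99% for Col-0 and a range of 2.76 to 2.80% for Col FRI. Loci of tRNA length held 0.201 to 0.221% in 35S::FCA and 0.159 to 0.182% in the other genotypes. These shares are descriptive and were not tested.

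**Figure D5:**
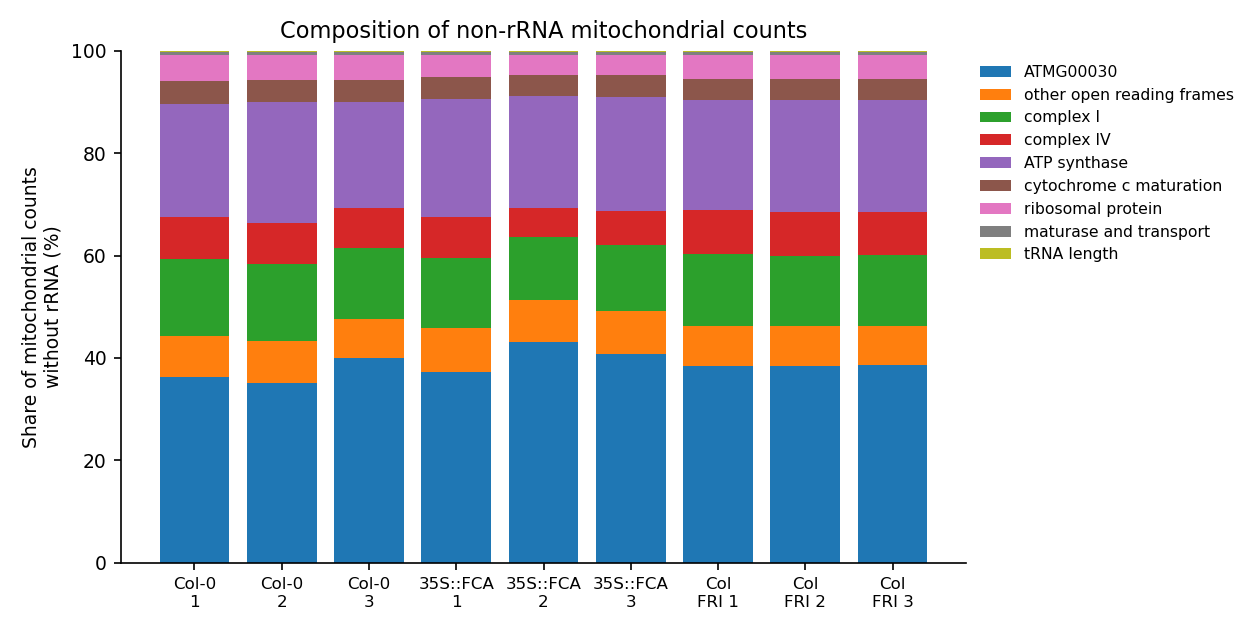
Share (%) of each class in the non-rRNA mitochondrial estimated counts, 1 stacked bar per library, with ATMG00030 drawn apart from the other open reading frames. The parts of the bars are similar in all libraries, with 20.6 to 23.7% for ATP synthase and 12.4 to 15.1% for complex I.

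The nuclear partners of these genes were read from lists of nuclear loci. Of 41 nuclear subunits of complexes I to IV, cytochrome c and ATP synthase, 40 were tested. Past an adjusted p of 0.05, 1 was higher in Col FRI than in Col-0 (AT5G08670, of ATP synthase) and 2 lower (AT1G51980, of complex III, and AT3G15640, of complex IV), and 0 passed with edgeR in the other comparisons, where 5 (35S::FCA against Col-0) and 7 (Col FRI against 35S::FCA) had an unadjusted p under 0.05, where 18.8% and 29.7% of all loci did. In Col FRI against Col-0, 13.3% of all loci passed the adjusted test. The median log2 fold change was 0.00 in Col FRI against Col-0, 0.03 in 35S::FCA against Col-0 and -0.08 in Col FRI against 35S::FCA. When Col-0 replicate 3 was left out, 1 was higher and 7 lower against Col-0, where 21.8% of all loci passed in either direction, and 1 higher and 5 lower against 35S::FCA, where 19.6% did. Both counts of subunits were near or under these shares.

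Past an adjusted p of 0.05, 13.3% of all loci differed in Col FRI against Col-0. Of 8 tested loci of alternative respiration, NDA2, an alternative NAD(P)H dehydrogenase, was higher in Col FRI than in Col-0 (log2 fold change 0.69, standard error 0.17, edgeR adjusted p = 0.0254) and PUMP1, an uncoupling protein, was lower (-0.31, standard error 0.08, edgeR adjusted p = 0.0344). Both passed also without Col-0 replicate 3, at 0.72 and -0.41, and PUMP1 was then lower in Col FRI than in 35S::FCA as well (-0.27, edgeR adjusted p = 0.00657). Of 3 loci of mitochondrial DNA maintenance, 0 passed with edgeR in Col FRI against Col-0, 35S::FCA against Col-0 and Col FRI against 35S::FCA. Of all loci, 13.3%, 1.52% and 12.9% passed there. In the same order, 1, 1 and 0 of the 3 had an unadjusted p under 0.05, where 30%, 18.8% and 29.7% of all loci did. Of 11 loci of mitochondrial transcription and RNA processing, AT1G74350, annotated as an intron maturase, was lower in Col FRI. It had 24, 29 and 27 counts in Col-0, 20, 36 and 40 in 35S::FCA, and 7, 5 and 4 in Col FRI, with no overlap. Against Col-0 the log2 fold change was -1.86 with a standard error of 0.35 (edgeR adjusted p = 0.0102), against 35S::FCA it was -2.03 with a standard error of 0.35 (edgeR adjusted p = 0.00494), and -1.68 and -2.04 without Col-0 replicate 3. AT5G04050, annotated as an RNA-directed DNA polymerase and held in the same list, had 73, 60 and 61 counts in Col-0, 69, 102 and 102 in 35S::FCA, and 21, 30 and 37 in Col FRI. It was lower in Col FRI than in 35S::FCA (log2 fold change -1.10, standard error 0.26, edgeR adjusted p = 0.0231), and at -0.66 against Col-0 (edgeR adjusted p = 0.129). The values were -1.11 (edgeR adjusted p = 0.0158) and -0.53 (edgeR adjusted p = 0.206) when Col-0 replicate 3 was left out. In that fit PMH2 (-0.32, edgeR adjusted p = 0.0168) and PMH1 (-0.35, edgeR adjusted p = 0.0249), putative mitochondrial RNA helicases of the same list, also passed in the comparison of Col FRI with Col-0, with negative values. Of all loci, 21.8% passed there in either direction.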

How the data were processed

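The authors quantified paired 75-nt reads of 2 sequencing runs with kallisto (version not given in the sources used here) on a TAIR10 index of 41683 models. They deposited estimated counts, which are not normalized, and TPM, which in the deposited values have the same total in every library. Transcript lengths and effective lengths were also deposited. Counts and TPM were summed per locus. Rounded sums went into the quasi-likelihood test of edgeR 4.0.16 under R 4.3.3, after filterByExpr and TMM, with genotype as the only term and Benjamini-Hochberg adjustment over all loci. Standard errors are the log2 fold change divided by the root of F. The test was checked on simulated data with planted changes. Alternatives used DESeq2 1.42.0, limma 3.58.1, other filters and library sizes, nuclear copies added and libraries left out.

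Nuclear loci of mitochondrial sequence were found by 31-nt words in TAIR10.1, whose mitochondrial assembly differs from the index, so no mitochondrial coordinates are given. Pairs came from annotation notes (46) or shared words (7). Names of the 41 listed loci are the usual ones, and 24 of 33 outside split genes have an entry as long as the TAIR10.1 gene. Values in every library are given for rRNA, the 10 highest loci by TPM, and the 3 higher and 3 lower loci of smallest p in each comparison. Members, lists and rules were chosen with earlier results of these data known. Labels name biological replicates. The depth per library is given with the results, and 3 counts were taken as the floor of detection.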

Additional observations from a re-analysis of the deposited data

How the results depend on the processing

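With the replicate number as a block, 0 mitochondrial loci passed an adjusted p of 0.05 in each comparison. Of all loci, 9.48% passed in Col FRI against Col-0, 0.522% in 35S::FCA against Col-0 and 10.6% in Col FRI against 35S::FCA. Same-numbered libraries deviated together by correlations of -0.113 to 0.265, and libraries of unlike number by -0.326 to 0.269. With 3 libraries per genotype these values cannot decide whether the numbers pair the samples. At that threshold Col FRI against Col-0 gave 1 locus (13.3% of all loci). It gave 2 with DESeq2 (12.9%), with mitochondrial library size (3.08%) and with limma on log2(TPM + 1) (2.32%). It gave 0 with limma on log2(TPM + 0.1) (2.78%), with only the 2 genotypes (11.1%) and with copies added (13.4%). Leaving out 1 library gave 0 to 70 (21.8% of all loci passed where it was 70), and 0 to 1 by the stricter rule. Without Col-0 replicate 3 and with copies added, chosen after seeing the data, it gave 92 (21.7% of all loci), with 1 by the stricter rule. 35S::FCA against Col-0 gave 0 (1.52% of all loci), but 1 with no filter (1.54%) and with mitochondrial library size (1.52%). It gave 0 to 14 with 1 library left out (8.45% of all loci where it was 14), and 21 without Col-0 replicate 3 with copies added (8.47% of all loci). Col FRI against 35S::FCA gave 0 (12.9% of all loci), but 4 with no filter (8.06%) and 1 with limma on log2(TPM + 1) (5.17%). With mitochondrial library size it gave 1 (3.81%), also by the stricter rule, which 265 of 18585 loci passed. It gave 49 with only the 2 genotypes (24.9% of all loci) and 0 to 39 with 1 library left out (19.6% of all loci where it was 39). Without Col-0 replicate 3 and with copies added it gave 48 (19.6% of all loci). The cause was not tested.

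The log2 ratio of mitochondrial shares in Col FRI against 35S::FCA, 0.36, was 0.43 without rRNA and 0.53 with chloroplast and rRNA loci out of the total. It was 0.32 to 0.38 with 1 library left out. The ratio ran from 0.12 to 0.86 in Col FRI against Col-0 and from -0.23 to 0.51 in 35S::FCA against Col-0. With copies added, nad6 in Col FRI against Col-0 turned to 0.35, and to 0.86 also without Col-0 replicate 3. ATMG00530 turned to 0.41 and 1.01 in that comparison, and to 0.38 and 0.38 against 35S::FCA. In 35S::FCA against Col-0 without Col-0 replicate 3, copies added turned rps4 to 0.21 and nad6 to 0.27. Depth limits the loci with few counts.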
